A study of Mus musculus with 8 samples.

Results

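The Ms4a family encodes small proteins that cross the plasma membrane several times, and in the mouse its genes lie side by side on chromosome 19. Its best known members are CD20 (Ms4a1), the B cell surface protein, and the beta chain of the high-affinity IgE receptor (Ms4a2) of mast cells and basophils. A group of related genes is expressed in macrophages and other myeloid cells, where the products sit beside pattern recognition and phagocytic receptors: MS4A4A associates with Dectin-1, and human variation in the MS4A region has been linked to soluble TREM2.

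The 8 genes described here (Ms4a8a, Ms4a14, Ms4a7, Ms4a4a, Ms4a4c, Ms4a6c, Ms4a6b and Ms4a6d) are the Ms4a genes of the myeloid lineage, taken by name from the chromosome 19 cluster. They are 8 of 21 Ms4a genes in the annotation and 8 of 48795 genes in the deposited tables, and 8 of 8 passed the filter on low counts that left 13040 genes for testing. Ms4a8a was included because earlier results of these data showed that it rose in every pair of mice, so its difference between genotypes is described and not tested. The other 7 were chosen by family and position.

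The libraries hold polyA RNA from unstimulated peritoneal macrophages (pMacs) collected by lavage, from 4 WT mice and 4 CD1d-KO mice, each set numbered 1, 2, 3 and 5. CD1d presents lipids to NKT cells, so CD1d-KO mice lack the protein in all cells and lack NKT cells as well. The study describes 2 CD1d-KO lines (a deletion of both CD1d genes, and a floxed allele crossed to PGK Cre), and which was sequenced is not given in the sources used here. The study used adult mice matched for age and sex, with littermates as controls, and calls the sequenced pMacs purified, by a step that is not given for this experiment. Libraries held 13698864 to 19059432 expected counts, and 4 of 4 Y-linked genes had at most 3 counts in every library.

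Cd1d1, the targeted gene, had 68.2, 175, 96.1 and 141 normalized counts in WT replicates 1, 2, 3 and 5, and 60.6, 1.14, 0 and 1.10 in the libraries labelled CD1d-KO replicates 1, 2, 3 and 5. In 3 of these 4 CD1d-KO libraries the gene was at or near 0, but the library labelled CD1d-KO replicate 1 held it at the level of its WT partner, with a log2 ratio of -0.17 in that pair. The log2 fold change of Cd1d1 was -3.42 (edgeR adjusted p = 0.233), and DESeq2 called it. Without replicate 1 it was -7.27 (edgeR adjusted p = 0.000685). Because of that library, the genotype differences of members and the counts of each gene list are also given without replicate 1. Normalized counts are expected counts scaled to the mean library size. Macrophage identity was clear from the large peritoneal macrophage markers, of which 15 of 15 were tested and whose summed TPM lay between 5390 and 6825 in the 8 libraries. The B cell markers were present as well: 12 of 12 were tested, with a summed TPM of 257 to 761 in WT and 191 to 1435 in CD1d-KO libraries. Mesothelial markers were nearly absent (0 of 8 tested, summed TPM at most 1.98).

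Levels between genes were compared as TPM, which accounts for gene length. Ms4a6d, which acts with VSIG4 in restraining the NLRP3 inflammasome, was the highest member, with 418 ± 220 TPM in WT and 496 ± 161 in CD1d-KO pMacs (SD, n = 4). Ms4a6c followed with 278 ± 130 and 365 ± 108 TPM, and Ms4a4a, the Dectin-1 partner, with 240 ± 182 and 209 ± 70.5 TPM. In WT pMacs these 3 genes stood at the 97.9th, 96.8th and 96.4th percentile of mean TPM among tested genes. Ms4a4c, which is often listed among interferon-induced transcripts of mouse leukocytes, had 51.5 ± 42.2 and 102 ± 72.6 TPM. Ms4a8a, known as a macrophage gene induced by glucocorticoid together with interleukin-4 and found on tumour-associated macrophages, had 30.1 ± 7.86 and 54.8 ± 15.2 TPM. Ms4a7, a gene of macrophages that derive from monocytes in several tissues, had 20.9 ± 9.84 and 24.9 ± 6.57 TPM. Ms4a6b had 7.36 ± 3.54 and 10.7 ± 5.47 TPM, and Ms4a14 was lowest, with 1.05 ± 0.935 and 1.19 ± 0.158 TPM, at the 10.4th percentile in WT.

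The order of levels from Ms4a6d down to Ms4a14 held clear steps over the 8 libraries. In a two-sided exact sign-flip permutation test on log2(TPM + 0.1) that took the 8 libraries as separate units, 6 of 7 neighbour pairs differed. For 5 of them the higher gene was higher in 8 of 8 libraries and the exact p of 0.0078 was the smallest possible (adjusted p = 0.0109 over the 7 pairs). Ms4a6c exceeded Ms4a4a by 1.52-fold, in 7 of 8 libraries (exact permutation test, adjusted p = 0.0274). Ms4a4c and Ms4a8a were neighbours that did not differ beyond their spread (1.29-fold, higher in 5 of 8 libraries, exact permutation p = 0.367). The largest steps were from Ms4a6b to Ms4a14 (7.35-fold) and from Ms4a4a to Ms4a4c (3.82-fold). The order was the same without replicate 1, and 5 of 7 neighbour pairs then differed. Libraries of 1 replicate number are not independent, however: over the means of the 4 replicate pairs the smallest p that test can give is 0.125, and 0 of 7 neighbour pairs passed, although the higher gene was higher in 4 of 4 pairs for 5 of them.

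**Figure D1:**
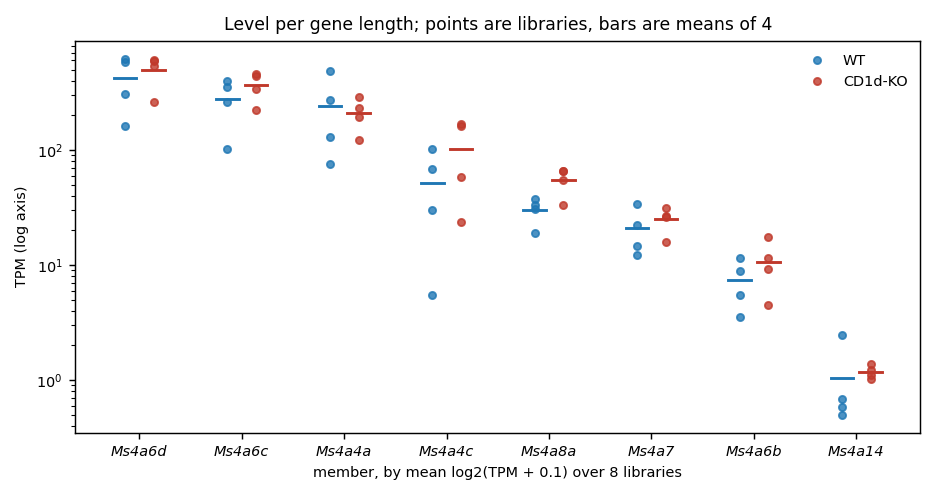
TPM of each member on a log axis, with members ordered by mean level; blue points are the 4 WT and red points the 4 CD1d-KO libraries, and bars are the mean of each 4. The means of Ms4a6d, Ms4a6c and Ms4a4a stand above those of Ms4a4c and Ms4a8a, whose points overlap, and Ms4a14 lies near 1 TPM.

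The comparison of genotypes took the libraries as labelled, although the one labelled CD1d-KO replicate 1 held Cd1d1 at the level of its WT partner. Ms4a8a had 167, 333, 399 and 334 normalized counts in WT replicates 1, 2, 3 and 5. The CD1d-KO libraries of the same numbers had 296, 590, 738 and 619. Within each pair the CD1d-KO library was higher by nearly the same factor, with log2 ratios of 0.82, 0.82, 0.89 and 0.89. The first of these is that of pair 1, where the log2 ratio of Cd1d1 was -0.17. Across pairs the groups overlapped, because the library labelled CD1d-KO replicate 1 lay below 3 of the 4 WT libraries. The means were 308 ± 99.1 and 561 ± 187 (SD, n = 4) and the paired log2 fold change was 0.86 (standard error 0.07), or 0.87 without replicate 1. Since the gene was picked for this rise, these values are a description.

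None of the other 7 members was called between genotypes by edgeR's quasi-likelihood test (adjusted p under 0.01 and a fold above 1.5), a rule that called 0.0383% of tested genes. Two-sided unadjusted p fell below 0.05 for 2 of 7, against 12.4% of tested genes. DESeq2 also called 0 of 7, with 2 at an unadjusted p below 0.05, where it called 0.989% of the genes it adjusted. The log2 fold change was above 0 for 7 of 7, with a median of 0.44, against a median of 0.0047 over all tested genes. Without replicate 1 edgeR called 0 of 7 members (0.054% of tested genes), the median was 0.24, 6 of 7 were above 0 and 1 of 7 had an unadjusted p below 0.05 (9.23% of tested genes). Without the replicate block 0 of 7 did (2.78% of tested genes). The groups overlapped in 7 of 7, and in the 13040 tested genes all CD1d-KO libraries lay above all WT libraries for 1.04%.

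Ms4a4c had the largest difference among the 7. Its normalized counts were 32.0, 515, 915 and 250 in WT replicates 1, 2, 3 and 5, and 160, 494, 1473 and 1260 in the CD1d-KO libraries. The CD1d-KO library was higher in 3 of 4 pairs, by log2 ratios of 2.28, 0.69 and 2.33 in pairs 1, 3 and 5, and the ratio in pair 2 was -0.06. The log2 fold change was 1.18 (standard error 0.38, edgeR unadjusted p = 0.0157, adjusted p = 0.255). It was 0.96 without replicate 1 (edgeR adjusted p = 0.516) and 0.77 without replicate 5, and without a filter on low counts the gene was called (log2 fold change 1.17, edgeR adjusted p = 0.00153).

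**Figure D2:**
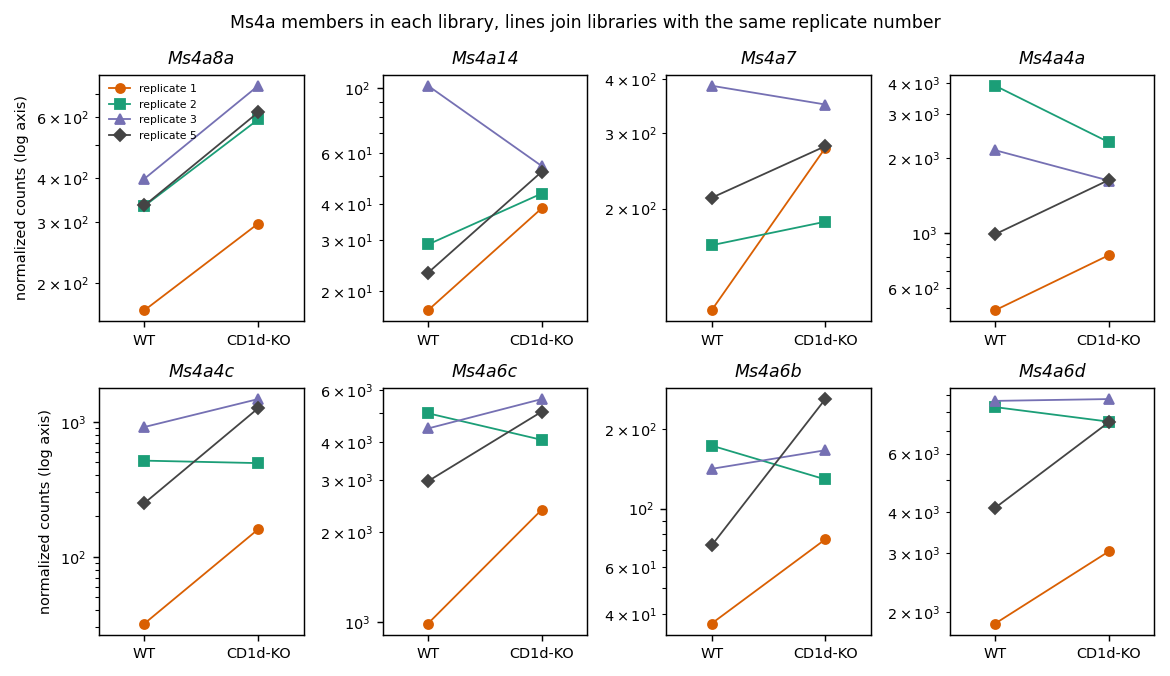
Normalized counts of each member on a log axis in WT and CD1d-KO libraries, with a line joining libraries of the same replicate number. The 4 Ms4a8a lines rise in parallel, whereas for the other 7 genes the lines cross or differ in slope, and WT replicate 1 is the lowest point of every panel.

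The 3 Ms4a6 genes had positive fold changes of unequal size in the pairs. Ms4a6c had 992, 5008, 4456 and 2969 normalized counts in WT replicates 1, 2, 3 and 5, and 2385, 4081, 5588 and 5071 in CD1d-KO. It was higher in CD1d-KO in 3 of 4 pairs and lower in pair 2, and its log2 fold change was 0.51 (standard error 0.22, edgeR unadjusted p = 0.0493, adjusted p = 0.402). Ms4a6b had 36.8, 173, 142 and 72.6 in the WT libraries and 76.6, 129, 166 and 260.0 in CD1d-KO. Its log2 fold change was 0.65 (standard error 0.34, edgeR adjusted p = 0.483), with 3 of 4 pairs higher. Ms4a6d had 1843, 8280, 8646 and 4116 in WT and 3042, 7484, 8756 and 7462 in CD1d-KO. WT replicates 2 and 3 lay close to their CD1d-KO partners while WT replicates 1 and 5 lay well below theirs, and the log2 fold change was 0.36 (standard error 0.17, edgeR adjusted p = 0.446). Without replicate 1 the log2 fold changes were 0.27 for Ms4a6c, 0.53 for Ms4a6b and 0.24 for Ms4a6d. That of Ms4a6b rested more on replicates 5 and 2, being 0.24 without the former and 1.04 without the latter.

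Ms4a4a was higher in CD1d-KO in some pairs and lower in others. It had 488, 3904, 2148 and 987 normalized counts in WT replicates 1, 2, 3 and 5, and 813, 2313, 1621 and 1631 in CD1d-KO. The log2 ratios were 0.74 and 0.72 in pairs 1 and 5 and -0.76 and -0.41 in pairs 2 and 3. The log2 fold change was 0.06 (standard error 0.25, edgeR adjusted p = 0.953), and its sign turned without replicate 1 (-0.16) and without the replicate block (-0.24).

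Ms4a7 had 116, 164, 386 and 212 normalized counts in WT replicates 1, 2, 3 and 5 and 277, 186, 349 and 279 in CD1d-KO, with the widest gap in pair 1. Its log2 fold change was 0.42 (standard error 0.21, edgeR adjusted p = 0.465), and 0.14 without replicate 1. Ms4a14 had 17.2, 29.0, 102 and 23.2 in the WT libraries and 38.7, 43.5, 54.0 and 51.7 in CD1d-KO. WT replicate 3 was its highest library, above all 4 CD1d-KO libraries, while the other 3 WT libraries lay below all 4. The log2 fold change was 0.44 (standard error 0.38, edgeR adjusted p = 0.698), 0.18 without replicate 1 and 0.96 without replicate 3.

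The pairs did not behave alike. Of the 7 other members, 7 were higher in CD1d-KO in pair 1 (median log2 ratio 1.12) and 7 in pair 5 (median 0.86), but 2 in pair 2 (median -0.15) and 4 in pair 3 (median 0.02). The median over all tested genes was between -0.0093 and 0.0129 in every pair. For each of the 7, the ratio in pairs 1 and 5 exceeded that in pairs 2 and 3. None of the 7 was higher in CD1d-KO in 4 of 4 pairs, against 10.6% of tested genes, and 6 were higher in at least 3 pairs, against 34.7%.

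**Figure D3:**
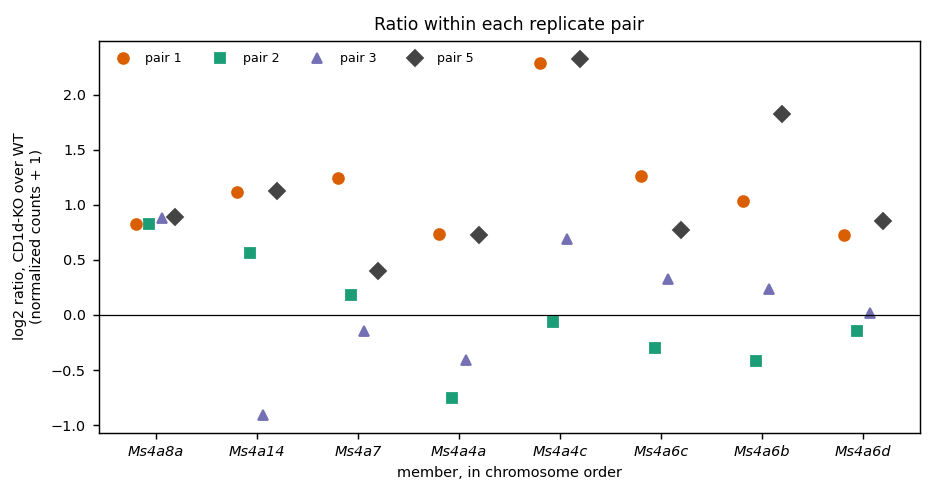
Log2 ratio of CD1d-KO over WT normalized counts (plus 1) within each replicate pair, for the 8 members in chromosome order; each symbol is 1 pair. The 4 Ms4a8a symbols lie at nearly the same height, between 0.82 and 0.89, and for each of the other 7 genes pairs 1 and 5 lie above pairs 2 and 3.

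The members varied widely between mice of 1 genotype. The SD of log2 CPM within genotype was 1.79 for Ms4a4c, 1.03 for Ms4a4a, 0.89 for Ms4a6d, 0.87 for Ms4a6b and 0.85 for Ms4a6c, against a median of 0.263 over all tested genes. These 5 stood between the 94.1st and 99.5th percentile of SD. Ms4a8a (SD 0.56) and Ms4a7 (0.58) were at the 83.7th and 84.5th percentile. Ms4a4c spanned 28.6-fold among the 4 WT mice, and Ms4a4a ran from 488 to 3904 normalized counts among the same mice. WT replicate 1 was the lowest of the 8 libraries for 8 of 8 members, and it was the lowest for 17.4% of tested genes. The summed TPM of the 8 members was 380.1, 1588, 1430 and 790 in WT replicates 1, 2, 3 and 5, and 698, 1302, 1490 and 1563 in CD1d-KO.

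With the mean of each genotype removed, most members moved together over the 8 libraries. Pearson's r of log2 CPM was above 0 for 28 of 28 pairs of members, with a median of 0.811. Among Ms4a4a, Ms4a4c, Ms4a6c, Ms4a6b and Ms4a6d it ran from 0.799 to 0.970. The highest value was between Ms4a6c and Ms4a6d (r = 0.970, Spearman's rho = 0.905) and the lowest between Ms4a7 and Ms4a4a (r = 0.278, rho = 0.0952). These are descriptions over 8 libraries that share replicate pairs, and the replicate 1 libraries carry much of them: without replicate 1 the median was 0.660. The values were also taken without the 2 libraries farthest from the median of the first gene of each pair of members, in chromosome order. These libraries were not the same for every pair of members. Of the 28 values, 5 were then below 0 and the median was 0.521. Ms4a7 was in 4 of the 5, with r = -0.560 against Ms4a4a and -0.198 against Ms4a6d, and the fifth was Ms4a8a with Ms4a4a (-0.111).

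The interferon-stimulated genes varied over the same libraries. Of the 23 in the list, 23 were tested and 0 were called by edgeR or by DESeq2. Two-sided unadjusted p was below 0.05 for 21, with 23 of 23 log2 fold changes above 0 and a median of 0.77, beside 12.4% and 0.0047 over all tested genes. Their median log2 ratio was 1.74, 0.17, 0.22 and 1.09 in pairs 1, 2, 3 and 5, so it too was higher in pairs 1 and 5 than in pairs 2 and 3. Irf7, a transcription factor of the interferon response, had 7096 ± 5177 and 11297 ± 6185 normalized counts (log2 fold change 0.90, edgeR adjusted p = 0.150), and Oasl1, Zbp1 and Mx1 had log2 fold changes of 1.04, 0.98 and 1.12. Ranked by the summed TPM of the list, the libraries ran WT 1, CD1d-KO 1, WT 5, WT 2, CD1d-KO 2, CD1d-KO 5, WT 3 and CD1d-KO 3. By Ms4a4c the order was the same for the 3 lowest and the highest library. Without replicate 1, 15 of the 23 had an unadjusted p below 0.05, beside 9.23% of tested genes, the median was 0.46 and Irf7 had a log2 fold change of 0.69. The part of the interferon-stimulated genes in the Ms4a differences was not tested.

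**Figure D4:**
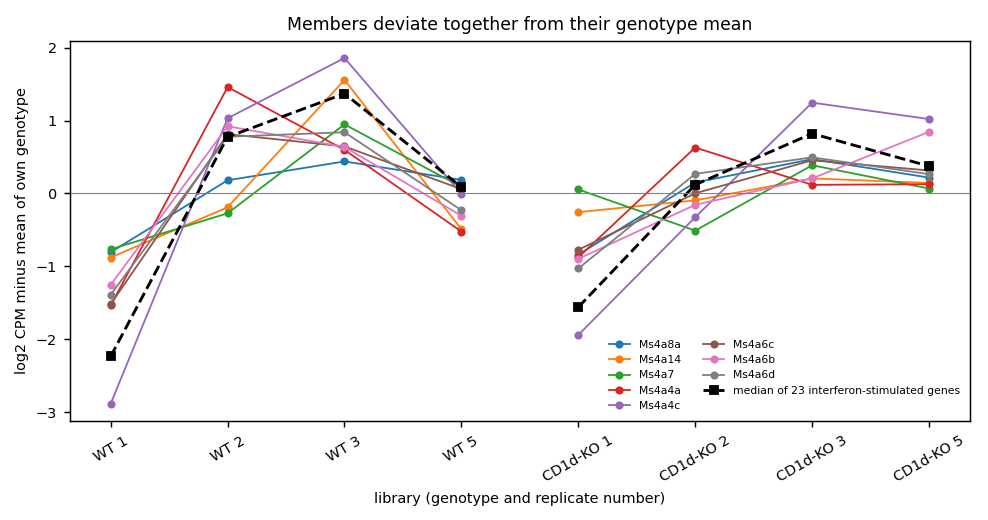
Log2 CPM of each member minus the mean of its own genotype, by library (genotype and replicate number); coloured lines are the 8 members and the dashed black line is the median of 23 interferon-stimulated genes. The replicate 1 libraries of both genotypes lie low for most genes, Ms4a4c reaching -2.88 in WT replicate 1, where the interferon median is -2.24.

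Genes of pathways tied to Ms4a proteins were counted in the same fit, where 12.4% of tested genes had an unadjusted p below 0.05 and DESeq2 called 0.989%. Of the 12 genes for Dectin-1 and TREM2 signalling, 12 were tested, 0 were called by edgeR or DESeq2, and 4 had an unadjusted p below 0.05, 2 in each direction, with a median log2 fold change of 0.03. Clec7a, which encodes Dectin-1, averaged 14958 ± 1417 normalized counts in WT pMacs and 10647 ± 2240 in those of CD1d-KO mice (log2 fold change -0.51, edgeR adjusted p = 0.122) and was lower in 4 of 4 pairs. Trem2, the lipid-sensing receptor of macrophages, had 289 ± 96.4 and 178 ± 57.5 (log2 fold change -0.70, edgeR adjusted p = 0.175), also lower in 4 of 4. The kinases Src and Syk had log2 fold changes of 0.42 and 0.23. Of 17 genes of alternative activation, all tested, 0 were called by edgeR and 2 by DESeq2 (Ccl24 and Cd163), and 6 had an unadjusted p below 0.05, all with lower values in CD1d-KO. Arg1, the arginase of alternatively activated macrophages, and Cd163, the haemoglobin-haptoglobin receptor, had log2 fold changes of -0.92 and -1.03 (edgeR adjusted p = 0.144 and 0.149), and those of Egr2 and Ccl24 were -0.56 and -0.76. Clec7a (DESeq2 adjusted p = 0.000644) and Egr2 (DESeq2 adjusted p = 0.000983) both missed the DESeq2 call on the fold threshold alone. Of 12 glucocorticoid-responsive genes, all tested, 0 were called by edgeR or DESeq2 and 5 had an unadjusted p below 0.05, 4 with higher values and 1 (Fkbp5, log2 fold change -0.49) with lower. Dusp1, Sgk1 and Tsc22d3 had log2 fold changes of 0.44, 0.27 and 0.52. Without replicate 1 the counts at an unadjusted p below 0.05 were 4 of 12 for Dectin-1 and TREM2 signalling, 6 of 17 for alternative activation and 4 of 12 for the glucocorticoid list, and 0 were called by edgeR. Clec7a then had a log2 fold change of -0.62, Trem2 -0.58, Arg1 -0.95 and Cd163 -0.91.

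Cell type markers were read for the same reason, since fewer cells of a type and less RNA per cell cannot be told apart in bulk samples. None of these lists held a gene called by edgeR, and the counts below stand beside 12.4% of tested genes at an unadjusted p below 0.05. Large peritoneal macrophage markers had 4 of 15 at an unadjusted p below 0.05 (Garnl3, Timd4, Selp and F5, all with higher values in CD1d-KO, median log2 fold change of the list 0.17), and small peritoneal macrophage and dendritic cell markers 2 of 13 (Itgax and Mrc1, both lower, median 0.03). Monocyte markers had 0 of 8 (median 0.17) and B cell markers 0 of 12 (median 0.19). T and NK cell markers had 0 of 2 tested and eosinophil markers 0 of 3. Neutrophil markers had 1 of 1 tested (S100a8, log2 fold change 0.83), and mast cell markers 1 of 5 (Hdc, log2 fold change 0.81, called by DESeq2, which called 0.989% of genes). The other 4 mast cell markers had log2 fold changes below 0, and the median of that list was -0.48. The sex-linked list had 1 gene tested, Xist, with a log2 fold change of 0.73 (edgeR adjusted p = 0.0575, called by DESeq2). Without replicate 1 the counts were 3 of 15 for large peritoneal macrophage, 2 of 13 for small peritoneal macrophage and dendritic cell, 1 of 8 for monocyte, 0 of 12 for B cell and 4 of 4 for mast cell markers (Hdc with a higher and 3 with lower values in CD1d-KO), beside 9.23% of tested genes. The part of any cell type in the Ms4a values was not tested.

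The other 13 Ms4a genes were mostly silent in these libraries. 7 had 0 counts in every library, 3 (including Ms4a2 and Ms4a3) had at most 1 count, and Ms4a4d reached 12 counts and was not tested. Ms4a1 had 381, 230.0, 482 and 463 normalized counts in WT replicates 1, 2, 3 and 5, and 606, 109, 338 and 1106 in CD1d-KO. Its low library was therefore replicate 2 of both genotypes. The myeloid members were lowest in replicate 1 of both, except Ms4a7, whose lowest CD1d-KO library was also replicate 2 (186). The log2 fold change of Ms4a1 was 0.19 (standard error 0.34, edgeR adjusted p = 0.883), or -0.01 without replicate 1. Ms4a4b, best known from T cells, had 6.97, 56.5, 57.5 and 29.5 in WT and 20.7, 41.4, 84.7 and 69.1 in CD1d-KO (log2 fold change 0.64, standard error 0.34, edgeR adjusted p = 0.496), or 0.43 without replicate 1. Like the members, it was lowest in WT replicate 1.

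The cluster spans chr19:10962293-11640851 on GRCm38 (679 kb). Ms4a8a lies at chr19:11067471-11081102 on the minus strand, and the other 7 members follow from chr19:11301249 (Ms4a14) to chr19:11604849 (Ms4a6d). Of 66 genes that are not Ms4a genes in this span or within 500 kb of it, 24 were tested and 0 were called by edgeR or DESeq2, 1 had an unadjusted p below 0.05, and the median log2 fold change was 0.0175. That gene, AW112010, a long RNA whose nearer end is 11.7 kb from Ms4a8a, had 159, 961, 1203 and 1013 normalized counts in WT replicates 1, 2, 3 and 5 and 814, 546, 3555 and 4050 in CD1d-KO. The CD1d-KO library was higher in 3 of 4 pairs, and the log2 fold change was 1.32 (standard error 0.47, edgeR adjusted p = 0.302), or 0.99 without replicate 1. BE692007 had a log2 fold change of 0.51 (edgeR adjusted p = 0.467), close to that of Ms4a6c, which it overlaps on the opposite strand over 53.1% of the Ms4a6c exon bases. Whether counting used strand is not given in the sources used here, so reads in the shared stretch cannot be assigned to either gene with certainty. Gm8369 and A430093F15Rik had log2 fold changes of 0.42 and 0.62.

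**Figure D5:**
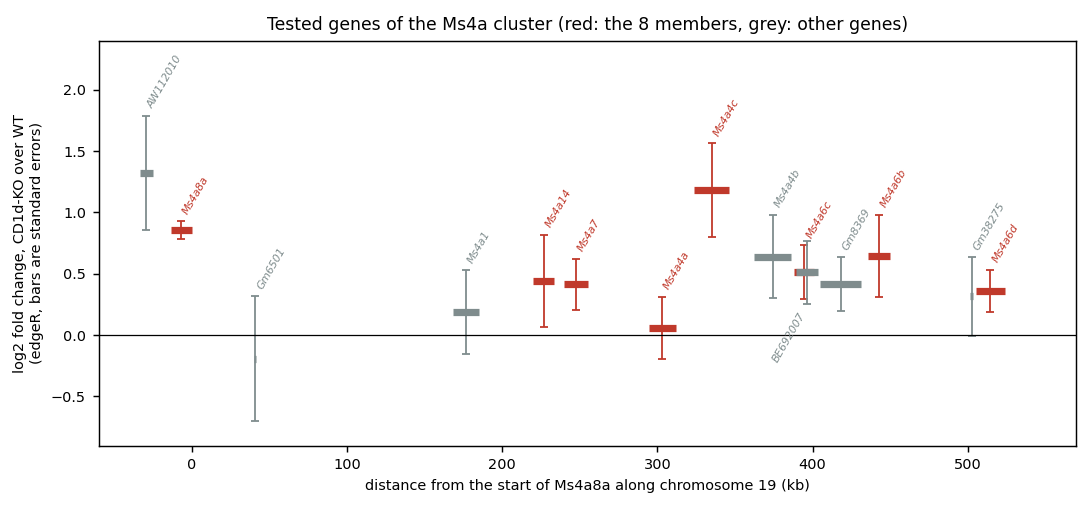
Log2 fold change (CD1d-KO over WT, edgeR with replicate block) of the tested genes within the span of the Ms4a cluster, against distance from the start of Ms4a8a in kb; thick bars are gene bodies, thin bars standard errors, red the 8 members and grey other genes. Of the 15 genes drawn, Ms4a4c and AW112010 have the highest estimates, at 1.18 and 1.32. Ms4a8a was picked for its even rise in this contrast, and its short standard error, 0.07, is a description of that choice.

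Stretches shared with other genes bear on 4 members. Windows of 75 bases of their transcripts that also occur in another gene made up 3.78% for Ms4a4c (shared with Ms4a4b), 2.88% for Ms4a6c (Ms4a6b and Prdm11), 0.632% for Ms4a6b and 0.408% for Ms4a6d. Expected counts that were not whole numbers, which arise when reads are divided among genes, appeared in 8 of 8 libraries for Ms4a4c, Ms4a6c and Ms4a6d and in 7 of 8 for Ms4a6b. Values of these 4 are uncertain to at least that extent. The windows were compared on the strand of the transcript only, so they leave out genes on the opposite strand. For Ms4a6c these include BE692007, which overlaps 53.1% of its exon bases, and the source of its divided reads was not tested. Ms4a8a, Ms4a14, Ms4a7 and Ms4a4a had no shared window and only whole counts.

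RefSeq promoters (GRCm38.p6, 250 bases before to 50 after the start) were matched for 7 of 8 members, all but Ms4a6d, with 2 starts for Ms4a7. Ms4a6c (chr19:11469118-11469417, plus strand) and Ms4a6b (chr19:11518309-11518608, plus strand) are shown because they are neighbouring copies. With the genotype mean removed, r between them was 0.9325, below that of Ms4a6c with Ms4a4c (0.9675) or Ms4a6d (0.970). Any tie between promoter sequence and levels was not tested. Capitals mark runs of at least 12 bases that both hold in common, 86 bases or 28.7% of each.
Ms4a6c: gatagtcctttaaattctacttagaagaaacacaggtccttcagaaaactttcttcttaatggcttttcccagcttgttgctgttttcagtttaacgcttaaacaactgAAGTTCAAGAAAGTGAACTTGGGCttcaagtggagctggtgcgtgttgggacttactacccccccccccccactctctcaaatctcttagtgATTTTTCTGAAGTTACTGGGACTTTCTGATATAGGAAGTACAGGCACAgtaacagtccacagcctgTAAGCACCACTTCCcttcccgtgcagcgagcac
Ms4a6b: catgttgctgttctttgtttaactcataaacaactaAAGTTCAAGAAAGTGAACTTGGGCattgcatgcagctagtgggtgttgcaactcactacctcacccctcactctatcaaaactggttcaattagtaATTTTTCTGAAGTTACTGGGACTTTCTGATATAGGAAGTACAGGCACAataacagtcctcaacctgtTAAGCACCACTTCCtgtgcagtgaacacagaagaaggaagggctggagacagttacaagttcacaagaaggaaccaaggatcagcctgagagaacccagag
The longest common run, of 48 bases, occurred in these 2 of 32851 promoters and no other. Every other pair of the 7 members with a promoter had 0 bases in such runs. Ms4a6d could not be compared, and for Ms4a7 only the window at chr19:11336097-11336396 was compared. Ms4a8a was among the pairs with 0, and its promoter (chr19:11081054-11081353, minus strand) is shown as that of the gene with the even rise.
Ms4a8a: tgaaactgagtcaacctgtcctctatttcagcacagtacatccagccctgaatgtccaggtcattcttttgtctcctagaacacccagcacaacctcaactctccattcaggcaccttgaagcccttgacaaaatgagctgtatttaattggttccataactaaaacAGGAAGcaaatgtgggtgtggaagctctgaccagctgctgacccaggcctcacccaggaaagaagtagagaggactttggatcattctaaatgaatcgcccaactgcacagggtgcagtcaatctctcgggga
Its capitals mark AGGAAG, the core letters read by the myeloid factor PU.1, 83 bases before the start. It is not particular to Ms4a8a. On either strand it also matched in Ms4a6c, 17 bases before the start, and in Ms4a6b, at 86, 42 and 17 bases. This motif was added after the sequences had been seen, and 35.4% of all promoters hold it on either strand. The longer PU.1 motif GAGGAAGT (3.20% of promoters) and the interferon-stimulated response element (a pair of half-sites, 3.44%) had no match on either strand in any of the 7 members' windows. The GAS motif TTCNNNGAA (8.3%) had none either. AGATAA (11.2%) and TATAAA (13.6%) matched in Ms4a14 alone.

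Genes with levels most like Ms4a8a over the 8 libraries were picked among 9941 tested genes with a mean of at least 50 normalized counts. By Pearson's r of log2 CPM they were Igsf8 (r = 0.983), Gm26885 (0.982), Syk (0.972), Zc3h4 (0.969) and Ccl5 (0.960). Igsf8, an immunoglobulin-family membrane protein, had 1315 ± 454 and 2090 ± 659 normalized counts, and the chemokine gene Ccl5 had 1126 ± 699 and 2363 ± 1408. With the mean of each genotype removed the closest were Psme2b (0.989), Prkce (0.989), Edn1 (0.988), Prnp (0.988) and Ctsz (0.985), a list with no gene in common with the first. No Ms4a gene was in either list. These r values are descriptions, picked as the highest among many genes over libraries that share replicate numbers. With the genotype mean removed, Ms4a8a stood at -0.81 in WT replicate 1 and -0.84 in CD1d-KO replicate 1. It stood at 0.15 to 0.47 in the other libraries, so the second list rests largely on replicate 1. The first list also holds the rise for which Ms4a8a was picked.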

How the data were processed

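The authors sequenced polyA RNA of pMacs (4 WT mice, 4 CD1d-KO mice) as single-end libraries made with the KAPA mRNA HyperPrep kit. Reads were trimmed with Cutadapt and quantified with STAR 2.5.2a and RSEM 1.3.0 on GRCm38, and the deposited values are expected counts per gene, with TPM and FPKM (FPKM was not used). Gene length columns, in bases, were deposited by the authors in the same tables.

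Expected counts were rounded and tested with edgeR 4.0.16 (R 4.3.3): filterByExpr, TMM scaling, a quasi-likelihood fit with genotype and replicate number as a block, Benjamini-Hochberg over 13040 genes. Called means adjusted p under 0.01 and fold above 1.5. These are the thresholds of the study, which applied them with DESeq2 and not with edgeR. Replicate numbers were taken to pair the libraries, since the study's model also held replicate as a covariate. Deviations from the genotype means correlated at 0.487, 0.387, 0.505 and 0.207 within numbers 1, 2, 3 and 5. Within numbers 1, 2 and 3 this lay above the highest r with another number (-0.0148, 0.0254 and 0.0586). Within number 5 it did not (0.220), so these values do not show the pairing of number 5. No 2 libraries agreed within sampling noise (smallest chi-square per degree of freedom 14.6 over 28 pairs). Controls were littermates and groups were processed side by side in the study, but which mice share a number, and why, is not given. In counts simulated for WT against CD1d-KO over 13040 genes, edgeR called 71 of 100 genes changed by 1 on the log2 scale and 93 of 100 changed by 2, with 0 false calls. The share called among genes as variable as the 7 members other than Ms4a8a was not tested. The SD of the pair ratios was 0.501 to 1.19 for those 7, beside a median of 0.239 over all tested genes. Alternatives used DESeq2 1.42.0, limma 3.58.1, other scalings and filters, unpaired fits and left-out libraries. A GENCODE annotation of GRCm38 held 99.26% of gene IDs. TPM was compared as log2(TPM + 0.1).

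The members, gene lists and tests were chosen with earlier results of these data known. Named were the members, other Ms4a genes, Cd1d1, up to 4 genes per list and in the flanks by smallest p, and 5 genes most like Ms4a8a by each measure.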

Additional observations from a re-analysis of the deposited data

Results flagged for a closer look

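Ms4a14 in WT replicate 3 had 102 normalized counts, where the other 3 WT libraries had 17.2 to 29.0, a gap of 0.861 of the range of the group. Among the 16 groups of 4 libraries examined (8 members in 2 genotypes) it was the only one past Dixon's critical value for 4 samples, and chance alone marks about 1 in 20 groups. The expected count behind it was 85, against 22 to 27 in the other 3.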

How the results depend on the processing

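Of 22 alternatives, 21 left the count of called members among the 7 at 0. Without a filter on low counts it was 1 (Ms4a4c), with 236 genes called in all. Without the replicate block, and with any replicate left out, the count was also 0, which cannot fall further. At an unadjusted p below 0.05, 2 of 7 became 0 without the block: p rose from 0.0157 to 0.287 for Ms4a4c and from 0.0493 to 0.454 for Ms4a6c. The number of all genes called was 3 without the block, 105 by DESeq2, 48 at an adjusted p under 0.05, 22 without replicate 2, 3 with limma on TPM and 3 without replicate 3 or 5, so the 5 calls depend on the mice and tool used. The Ms4a8a log2 fold change ran from 0.85 to 0.87 with a pair left out, and from 0.65 to 1.08 with single libraries left out and no block. For the 7 others the median ran from 0.05 (without WT replicate 1, no block) to 0.75 (without WT replicate 3, no block). The sign turned for Ms4a4a in 10 of 21 alternatives, for Ms4a14 in 2 and for Ms4a6d in 1. The level order was the same in 6 of 6 alternatives, with 5 to 6 neighbour pairs differing. Over means of the 4 replicate pairs, an alternative chosen after seeing the data, 0 pairs passed, since 4 units cannot give p below 0.125. The median correlation of members was 0.660 without replicate 1 and 0.766 with pair means removed. Ms4a14, at 22 to 85 expected counts, is the member most limited by depth.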

Other observations

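The 4 Ms4a8a pair ratios were closer to each other than counting error alone would give on average. Their SD was 0.0363 (log2), whereas the Poisson standard error of 1 pair's ratio, from 223 to 628 expected counts per library, was 0.0979 to 0.121. Over all tested genes the median SD of the pair ratios was 0.239, and 0.920% of them had a smaller SD than Ms4a8a. The gene was picked for this evenness among many, so the small SD is a description of that choice. For the other 7 members the SD of the pair ratios was 0.501 to 1.19, above their counting errors.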
